A study of Mus musculus with 6 samples.

Results

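The genes described here encode core components and regulators of the spliceosome. They are the protein-coding genes of the deposited table whose names begin with Srsf, Hnrnp, Sf3a, Sf3b, Snrp or Prpf, and they number 64 of the 29097 genes listed. By class they comprised 10 SR protein genes, 20 hnRNP genes, 9 genes for SF3a and SF3b subunits, 12 genes for snRNP proteins and 13 Prpf genes. Another 4 rows with such names were annotated as processed pseudogenes only and were left out.

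Expression was measured by Smart-seq2, a full-length cDNA method for small RNA amounts, in neutrophils sorted from the peripheral blood (PB) of male C57BL/6 mice aged 8 weeks as CD45+CD11b+Ly6G+ cells. Mice with ligature-induced periodontitis (LIP), labelled Lig in the deposited data, carried a silk ligature around the second molars for 14 d, and control (Ctrl) mice received no ligature over the same time. Each group had 3 libraries, and each library pooled the cells of 5 mice, so the spread between libraries is that between pools. The sources name no other agent or allele in either group, and no single animal can be followed in these data.

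Introns are removed from pre-mRNA by the spliceosome, which is built from small nuclear RNAs, a ring of Sm proteins around most of them, and many further proteins. The U1 snRNP binds the 5′ splice site and the U2 snRNP, with SF3a and SF3b, binds the branch point. Prpf proteins serve mainly in the U4/U6.U5 tri-snRNP that joins next and in the rearrangements that follow. SR proteins bind exons and mostly favor the use of nearby splice sites, whereas hnRNPs coat nascent transcripts and often oppose it. Blood neutrophils are short-lived, post-mitotic cells with little RNA, and lymphocytes hold more RNA per cell.

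Library totals ranged from 52186555 to 57262379 counts on genes, so that depth was similar in both groups. The libraries differed in their content of other blood cells. All 18 tested B cell markers, all 19 T cell markers and all 9 tested erythroid markers were lower in LIP. Summed B cell markers spanned 20550 to 22735 CPM (counts scaled to a common library size) in Ctrl and 4483 to 4557 CPM in LIP, and those of T cells spanned 1181 to 1265 CPM and 259 to 311 CPM. Erythroid transcripts took 15% of all counts in Ctrl and 1.6% in LIP. All 23 mature neutrophil markers were higher in LIP, with sums of 18576 to 20646 CPM in Ctrl and 69792 to 75178 CPM in LIP, as were all 3 sort markers and all 11 platelet markers, and 10 of 11 monocyte markers. Of 10 natural killer cell markers, 3 were higher, and of 5 tested cycling genes 4 were lower. Summed over all 11 listed cycling genes, tested or not, they spanned 147 to 165 CPM in Ctrl and 81.1 to 90.9 CPM in LIP. Not all of them fell: Mki67, which was not tested, averaged 5.11 CPM in Ctrl and 9.65 CPM in LIP. The part of these differences in the results below was not tested, and in bulk libraries fewer cells of a type and less RNA per cell cannot be told apart.

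Transcripts of the splicing machinery were mostly lower in PB neutrophil libraries from LIP mice. FPKM, which sets counts against gene length and library total, averaged 1 or more over the libraries for 60 of the 64 genes, and these were tested. Of them, 32 were lower and 5 were higher in LIP with a threshold of 0.05 on the adjusted p, and 23 were not called (edgeR quasi-likelihood test, TMM scaling by the trimmed mean of log ratios, p adjusted over all genes tested). The lower calls made up 53.3% of these genes, against a background of 27.2% lower among the 10440 genes tested. The higher calls made up 8.33%, against a background of 26.5% higher. Calls in either direction numbered 37 of 60, against 5601 of the 10440 genes tested (53.6%). The CPM ranges of the groups did not overlap for 33 of the 60 genes in the lower direction and 7 in the higher. Over all 10440 genes these were 3459 (33.1%) and 3161 (30.3%). These shares describe the genes and were not tested against the background. Their median log2 fold change was -0.54, that of all genes -0.09, and 49 of the 60 values were below 0. The full range ran from -1.44 for Snrpf to 1.50 for Hnrnpll. The 4 genes under the filter were Hnrnpa3, Prpf19, Prpf40b and Snrpn.

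**Figure D1:**
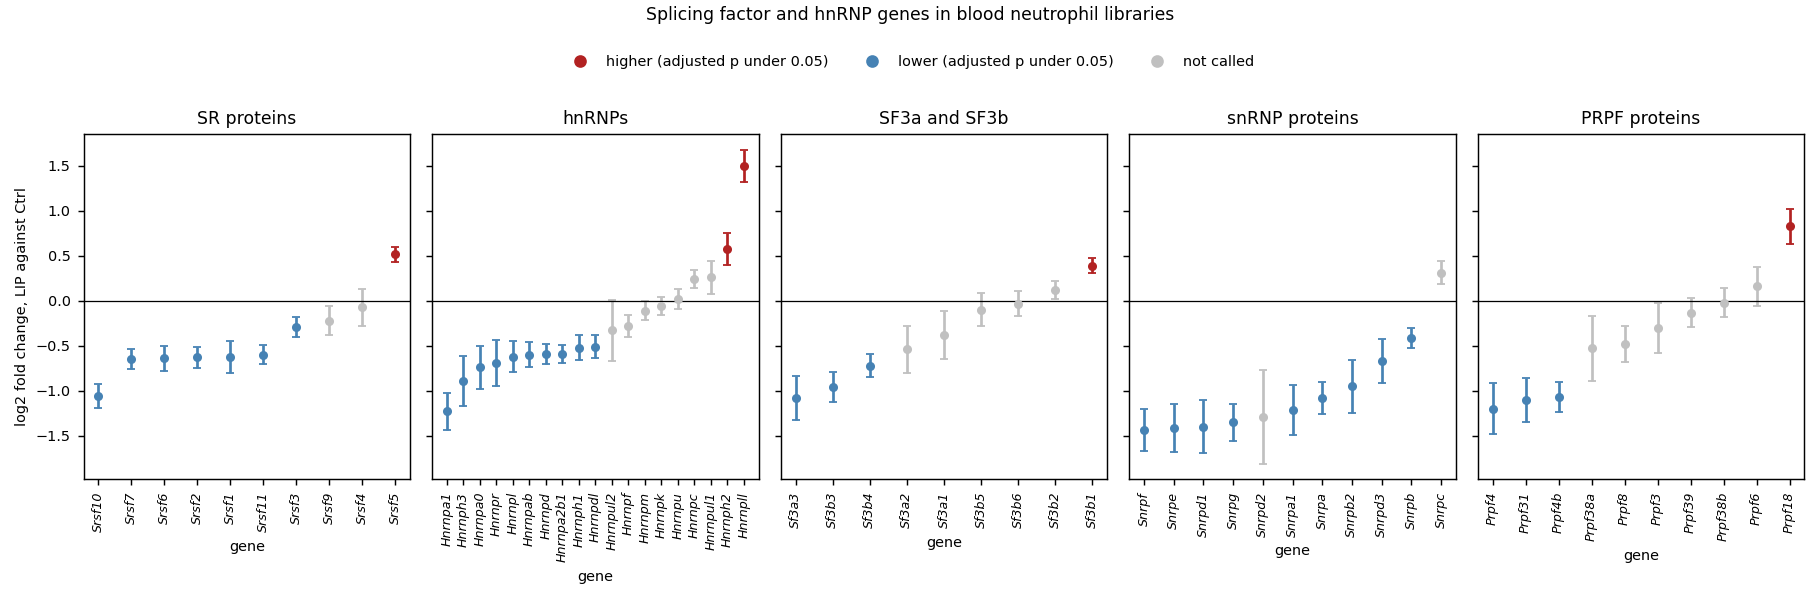
Log2 fold change (LIP against Ctrl, TMM scaling, y axis) of 59 of the 60 tested genes, ordered within 5 classes (x axis). Points are fitted values, bars are standard errors (SE), and color gives the call; each class but the snRNP proteins holds at least 1 gene higher under this scaling (none on the neutrophil genes) beside a majority of values below 0.

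The split depended in part on how the libraries were scaled. Scaling to library totals moved the median of all genes from -0.09 to -0.42, and 43 of the 60 splicing genes were then lower (background 40%) and 1 was higher (background 18.2%). Scaling on the 23 mature neutrophil genes moved it to -1.92, and 59 of the 60 splicing genes were then lower (background 88.6%) and 0 higher (background 0.517%). The distance between the median of the splicing genes and that of all genes was -0.44 with TMM, -0.44 with library totals, -0.47 with quantile scaling and -0.43 on the neutrophil genes. One factor per library shifts all genes by nearly the same amount, so only the quantile value could differ much from that with TMM. The distance did vary with the filter, at -0.25 with no filter, -0.36 with a filter on counts and -0.68 at a mean FPKM of 5 or more. All 32 lower genes were also called lower with library totals and on the neutrophil genes. Both of these scalings move all genes down, so the lower calls could hardly be lost there. Under every scaling and tool tried 28 of the 32 kept the call, and with no filter 25 did. Of the 5 higher genes, only Hnrnpll was called higher with library totals (log2 fold change 1.17), and on the neutrophil genes all 5 values were below 0, so higher is used below with respect to TMM scaling.

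**Figure D2:**
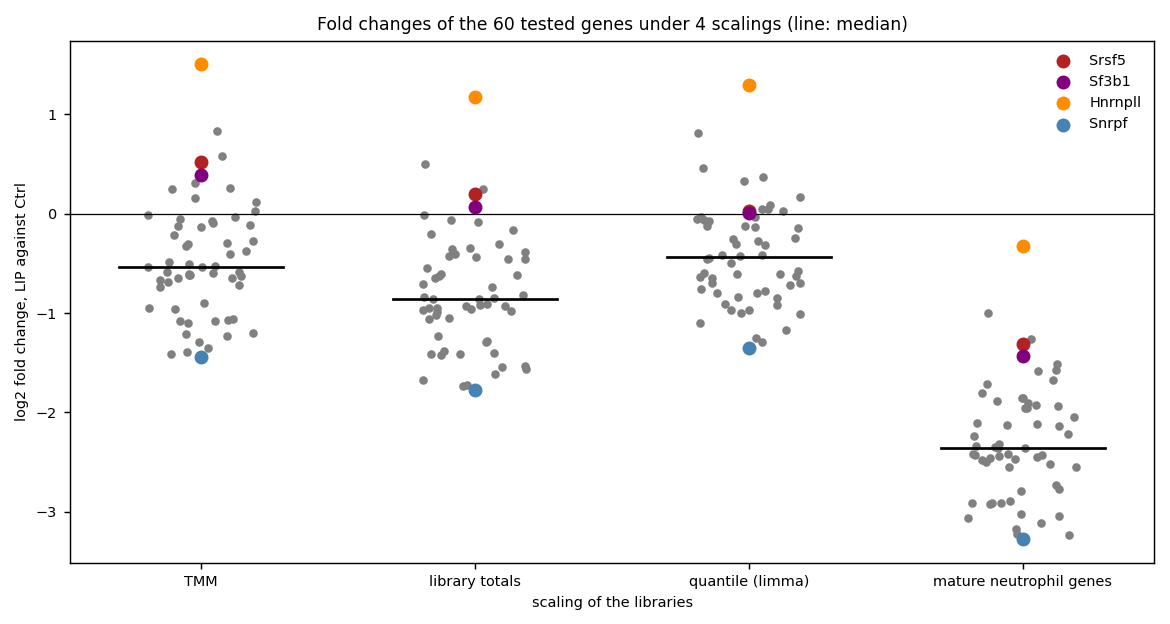
Log2 fold changes (LIP against Ctrl, y axis) of the 60 tested genes under 4 ways of scaling the libraries (x axis), with 4 genes in color and a line at the median. The whole set shifts with the scaling while Snrpf stays near the bottom and Hnrnpll near the top; all values lie below 0 on the neutrophil genes.

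The share of all counts, which amounts to scaling by library totals, was also taken per class. All 64 genes together took 0.727%, 0.683% and 0.718% of the counts in the 3 Ctrl libraries and 0.514%, 0.539% and 0.510% in the 3 LIP libraries. The means were 0.709% ± 0.0228 in Ctrl and 0.521% ± 0.0157 in LIP (SD, n = 3), a ratio of 0.735, and the groups did not overlap. The ratios differed between classes. SnRNP protein genes took 0.0550% in Ctrl and 0.0283% in LIP, a ratio of 0.515. Ratios were 0.678 for Prpf genes, 0.698 for hnRNPs, 0.758 for SR proteins and 0.886 for SF3a and SF3b. Erythroid, lymphoid and neutrophil transcripts are part of the total in each of these shares; with haemoglobin, immunoglobulin and mitochondrial genes left out of it, the ratio for all 64 genes was 0.614.

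The promoters of genes that moved in opposite directions are shown together to compare their sequence. They are the 250 bases before the RefSeq start (GRCm38.p6) of the 3 called genes with the largest rise and the 3 with the largest fall among the genes whose RefSeq start lay within 30 bases of the start in the table and whose sequence could be shown. Hnrnpll and Prpf18, which rose more under TMM scaling than the genes shown, had no RefSeq promoter and are missing here. Each sequence reads 5′ to 3′ along the gene, and capitals mark matches on either strand to the motifs described after the sequences.
Hnrnph2 (chrX:134600929-134601178, plus strand): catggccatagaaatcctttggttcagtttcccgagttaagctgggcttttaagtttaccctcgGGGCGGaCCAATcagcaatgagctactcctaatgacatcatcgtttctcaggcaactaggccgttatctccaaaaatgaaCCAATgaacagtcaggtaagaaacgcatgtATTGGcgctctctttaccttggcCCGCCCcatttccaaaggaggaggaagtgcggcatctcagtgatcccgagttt
Srsf5 (chr12:80945249-80945498, plus strand): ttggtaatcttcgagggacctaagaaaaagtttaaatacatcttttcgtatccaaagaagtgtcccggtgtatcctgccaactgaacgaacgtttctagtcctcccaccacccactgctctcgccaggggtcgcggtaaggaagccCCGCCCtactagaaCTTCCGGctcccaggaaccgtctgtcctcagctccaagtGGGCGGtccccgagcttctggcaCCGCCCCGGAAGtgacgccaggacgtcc
Sf3b1 (chr1:55027479-55027728, minus strand): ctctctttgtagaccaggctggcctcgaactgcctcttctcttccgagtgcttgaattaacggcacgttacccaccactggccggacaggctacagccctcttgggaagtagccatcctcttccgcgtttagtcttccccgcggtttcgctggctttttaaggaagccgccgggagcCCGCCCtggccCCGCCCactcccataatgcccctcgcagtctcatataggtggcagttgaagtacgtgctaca
Snrpe (chr1:133610281-133610530, minus strand): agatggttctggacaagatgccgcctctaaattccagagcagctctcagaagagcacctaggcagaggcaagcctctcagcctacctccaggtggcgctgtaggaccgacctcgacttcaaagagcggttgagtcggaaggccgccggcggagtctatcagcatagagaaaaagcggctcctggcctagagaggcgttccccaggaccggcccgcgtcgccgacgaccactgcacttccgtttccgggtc
Prpf4 (chr4:62408533-62408782, plus strand): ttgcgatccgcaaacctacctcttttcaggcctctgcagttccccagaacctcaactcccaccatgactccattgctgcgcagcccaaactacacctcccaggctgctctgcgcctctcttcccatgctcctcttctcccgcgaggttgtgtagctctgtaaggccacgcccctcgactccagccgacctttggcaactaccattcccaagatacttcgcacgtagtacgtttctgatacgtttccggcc
Prpf31 (chr7:3629735-3629984, plus strand): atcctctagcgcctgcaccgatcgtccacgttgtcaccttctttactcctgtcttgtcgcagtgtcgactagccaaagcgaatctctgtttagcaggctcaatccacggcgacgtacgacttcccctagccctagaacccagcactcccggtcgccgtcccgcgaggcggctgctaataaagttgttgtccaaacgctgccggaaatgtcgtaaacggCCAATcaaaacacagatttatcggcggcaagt

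Promoters in RefSeq were found for 56 of the 64 genes, and 6 motifs were counted on both strands over 300 bases, the 250 before the start and the 50 from the start on. The ETS core (CCGGAAG) was present in 19 of the 56 promoters, or 33.9%, against 15.4% of the promoters of coding genes and 8.86% of all promoters of this length. Among the classes it was most frequent in SF3a and SF3b genes, in 6 of 7, and least in hnRNP genes, in 2 of 18. By call, it was found in 9 of 29 promoters of lower genes, 1 of 3 of higher genes and 8 of 20 of genes not called. An NRF1 motif was in 16.1% of the promoters and in 8.71% of coding promoters, the GC box (GGGCGG) in 66.1% and 57.2%, the CCAAT box (CCAAT) in 48.2% and 38.7%, a YY1 motif in 3.57% and 1.71%, and the TATA box (TATAAA) in 10.7% and 9.37%. An NRF1 motif was in 2 of 29 promoters of lower genes, 0 of 3 of higher genes and 7 of 20 of genes not called, and a CCAAT box in 16 of 29, 1 of 3 and 7 of 20. The GC box was in 20 of 29, 3 of 3 and 12 of 20, the TATA box in 5 of 29, 0 of 3 and 1 of 20, and a YY1 motif in 0 of 29, 0 of 3 and 2 of 20; none of these splits was tested. Among the sequences printed, Srsf5 held ETS cores 23 and 90 bases before its start, the nearer one overlapping a GC box, and Sf3b1 held GC boxes 62 and 73 bases before its own. The printed stretches of Snrpe and Prpf4, both lower in LIP, held none of the 6 motifs, although Snrpe is counted above for overlapping ETS cores just after its start. Prpf31 held a single CCAAT box. Hnrnph2, higher in LIP, held 3 CCAAT boxes and 2 GC boxes. These are matches of letters in this window and say nothing of what binds there.

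Among SR protein genes, 7 of 10 were lower (70%, against 27.2% of all genes tested), 1 was higher and 2 were not called, and the median difference was -0.61 (log2). Srsf5, which encodes the SR protein SRp40, was the exception. It measured 481, 446 and 460 CPM in Ctrl and 674, 672 and 648 CPM in LIP. All LIP libraries stood above all Ctrl libraries, and the fitted difference was 1.44-fold (log2 0.52 ± 0.0834 SE, adjusted p = 0.000425); it was 0.19 with library totals (adjusted p = 0.064), 0.03 with quantile scaling and -1.31 on the neutrophil genes. Srsf5 (chr12:80945504-80950507, plus strand, GRCm38) was also the class member with the highest FPKM, at 118 in Ctrl and 137 in LIP.

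Srsf10, a splicing regulator known to be controlled by dephosphorylation, fell the most in this class. Its libraries measured 79.9, 69.6 and 71.4 CPM in Ctrl and 33.4, 35.6 and 37.2 CPM in LIP, a tight pair of groups that lay far apart (log2 -1.06 ± 0.133 SE, adjusted p = 8.27e-05). Srsf7, Srsf6, Srsf2, Srsf1 and Srsf11 formed a narrow band between -0.65 and -0.60, the call for Srsf1 being lost without Ctrl replicate 3. Srsf7, which also acts in mRNA export, measured 156, 142 and 143 CPM in Ctrl and 92.3, 98.5 and 90.4 CPM in LIP. Srsf2 overlaps the expressed genes Mfsd11 and Mettl23, and Srsf11 overlaps Gm43362, so reads in those stretches cannot be assigned by position alone. Srsf3, which regulates splicing and export and is among the smallest SR proteins, was only just called (log2 -0.29, adjusted p = 0.0472), and the call held in 1 of 6 fits that left out a library. Srsf9 was not called (log2 -0.22, adjusted p = 0.266), with 66.7, 75.1 and 72.7 CPM in Ctrl and 76.2, 52.7 and 55.4 CPM in LIP, and neither was Srsf4 (log2 -0.07, adjusted p = 0.780).

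The makeup of the SR protein transcripts also differed between groups. Shares within the class do not depend on scaling, whereas the direction of Srsf5 does. Srsf5 took 34.8% ± 0.611 of the counts of the class in Ctrl and 52.8% ± 0.751 in LIP (SD, n = 3). Srsf10 went from 5.53% ± 0.293 to 2.82% ± 0.245, Srsf7 from 11% ± 0.321 to 7.44% ± 0.306 and Srsf11 from 12.5% ± 0.702 to 8.69% ± 0.322. Srsf4 kept nearly the same share, at 2.45% ± 0.345 and 2.44% ± 0.477.

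**Figure D3:**
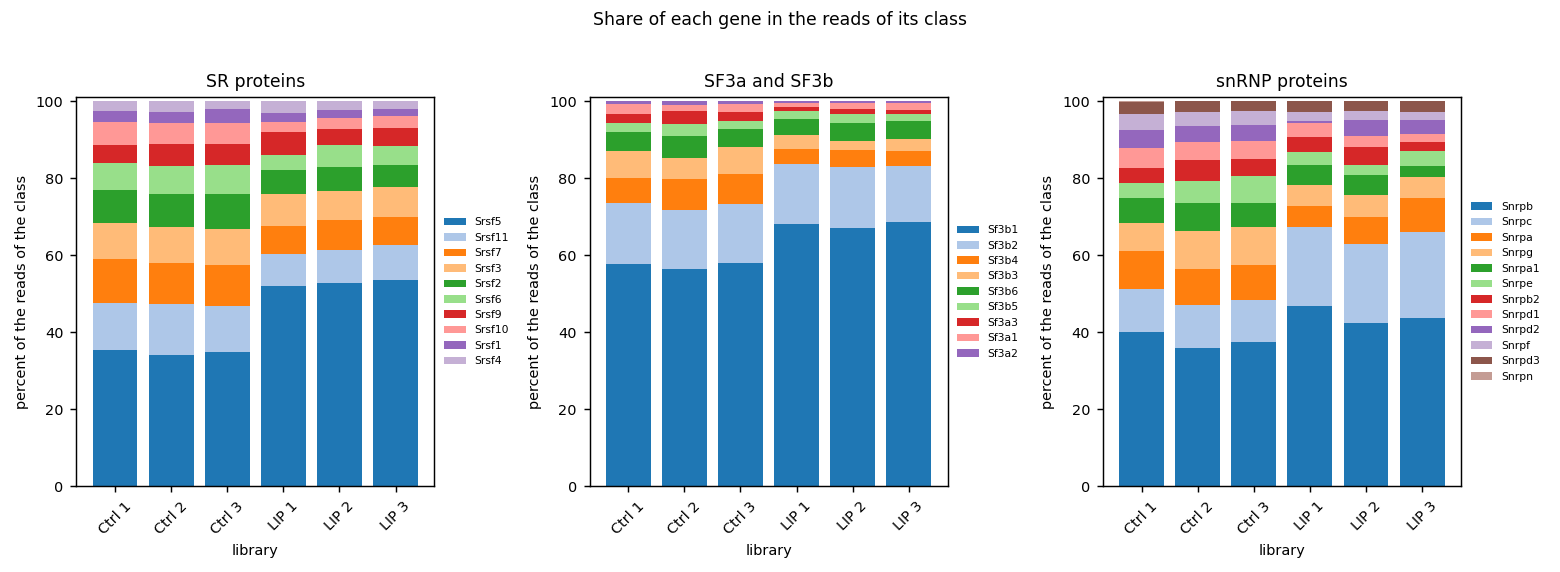
Percent of the counts of each class (y axis) taken by each of its genes, for SR proteins, SF3a and SF3b, and snRNP proteins, in each of the 6 libraries (x axis). Srsf5 and Sf3b1 take larger parts of their classes in all LIP libraries than in any Ctrl library, as do Snrpb and Snrpc of theirs.

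The SF3a and SF3b subunits, which belong to the U2 snRNP, included 3 lower genes of 9 (33.3%, near the background of 27.2%), 1 higher and 5 not called. Sf3b1, the large scaffold subunit that holds the branch point, drew the most counts of the 64 genes, with no correction for length. It measured 801, 737 and 803 CPM in Ctrl and 969, 1059 and 1045 CPM in LIP. The groups did not overlap (log2 0.39 ± 0.0823 SE, adjusted p = 0.00245), but the value was 0.06 with library totals, 0.00 with quantile scaling and -1.44 on the neutrophil genes. As a share of SF3a and SF3b counts, which needs no scaling, Sf3b1 took 57.3% ± 0.814 in Ctrl and 67.9% ± 0.702 in LIP (SD, n = 3).

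The subunits that were lower came from both SF3a and SF3b. Sf3a3, an SF3a subunit, measured 34.3, 45.6 and 30.5 CPM in Ctrl and 12.9, 21.8 and 17.4 CPM in LIP (log2 -1.08 ± 0.241 SE, adjusted p = 0.00353). Sf3b3 stood at log2 -0.96 and overlaps the expressed gene Cog4. Sf3b4, an RNA-binding subunit that contacts the intron upstream of the branch point, stood at log2 -0.72 (adjusted p = 0.000850), with 91.4, 105 and 109 CPM in Ctrl and 57.8, 67.5 and 59.8 CPM in LIP. Sf3b2, the partner of Sf3b4, was not called, at 221, 202 and 213 CPM in Ctrl and 222, 248 and 220 CPM in LIP, with a 95% interval of the log2 difference from -0.08 to 0.32. Sf3b6, which lies at the branch point, had an interval from -0.30 to 0.23. The log2 differences of Sf3a3 and Sf3b1 lay 1.47 apart with TMM and 0.92 apart with quantile scaling. On the neutrophil genes they again lay 1.47 apart, a distance that one factor per library leaves nearly unchanged.

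Genes for snRNP proteins were the class with the largest share lower, at 9 of 11 under TMM scaling (81.8%, against 27.2% of all genes tested), with 0 higher and a median of -1.21 on the log2 scale (edgeR). At an unadjusted p under 0.05, 1 gene of the class, Snrpc, was higher and 10 were lower. Over all 10440 genes tested, 3021 were higher and 3204 were lower at this threshold. The Sm proteins, which form the ring that every major snRNP shares with the exception of U6, were 6 of 7 lower with a median of -1.35. Snrpf (Sm F) measured 19.7, 20.0 and 17.8 CPM in Ctrl and 7.29, 7.68 and 6.22 CPM in LIP, which was the strongest fall of all 60 genes (log2 -1.44 ± 0.233 SE, adjusted p = 0.000469). Snrpe (Sm E) measured 18.3, 31.9 and 33.7 CPM in Ctrl and 11.6, 8.83 and 11.1 CPM in LIP (log2 -1.41, adjusted p = 0.00134). Reads on its pseudogene copy equalled 15.4% of those on Snrpe in Ctrl and 29.1% in LIP. Snrpg (Sm G) measured 33.5, 54.7 and 47.2 CPM in Ctrl and 17.9, 18.7 and 16.5 CPM in LIP (log2 -1.35, adjusted p = 0.000321). Sm E, F and G assemble as a unit in the ring, and their values lay within 0.09 of each other on the log2 scale, less than the SE of each. This closeness was not particular to them, since Snrpd1 (Sm D1) stood at -1.40.

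Snrpd1 (Sm D1) measured 23.8, 26.3 and 22.4 CPM in Ctrl and 12.5, 9.42 and 5.62 CPM in LIP (log2 -1.40 ± 0.292 SE, adjusted p = 0.00242). Its ring partner Snrpd2 (Sm D2) had a like estimate of -1.29 but was not called (adjusted p = 0.0579), since the LIP libraries scattered at 1.95, 13 and 11.1 CPM against 21.2, 22.1 and 20.2 CPM in Ctrl. All 3 LIP values still lay under the Ctrl range. Snrpd3 (Sm D3), which overlaps Gucd1, was called at an adjusted p of 0.0433 but lost the call in each of the 6 fits that left out a library. Snrpb (Sm B/B′), the ring member with the highest FPKM, at 97.1 in Ctrl, measured 185, 199 and 181 CPM in Ctrl and 158, 138 and 131 CPM in LIP and had the smallest difference of the ring under TMM scaling (log2 -0.41 ± 0.113 SE, adjusted p = 0.0115). It was no longer called without LIP replicate 3. It made up 37.9% ± 2.07 of the class in the 3 Ctrl libraries and 44.3% ± 2.29 in the 3 LIP libraries (SD). Snrpn, a close relative of Snrpb with 77.5% identical coding bases, measured 0.588, 0.169 and 0.208 CPM in Ctrl and 0 in every LIP library, where 0 counts allow 0.0595 to 0.0643 CPM (3 counts per library, counting error only), and was not tested.

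Proteins of single snRNPs were split. Snrpa, the U1-specific A protein, measured 46.5, 52.6 and 44.5 CPM in Ctrl and 18.8, 22.5 and 26.3 CPM in LIP (log2 -1.08, adjusted p = 0.000516). Snrpc, the U1-specific C protein that stabilizes 5′ splice site pairing, went the other way in estimate without passing the test, at 51.3, 60.7 and 51.5 CPM in Ctrl and 68.7, 66.6 and 67.6 CPM in LIP (log2 0.31, adjusted p = 0.0622; -0.02 with library totals). The groups did not overlap, and Snrpc took 10.9% ± 0.208 of the class in Ctrl and 21.1% ± 1.18 in LIP. Snrnp70, the remaining U1-specific protein and outside the naming rule, was not called (log2 -0.19, adjusted p = 0.303). The U2-specific proteins Snrpa1 (log2 -1.21, adjusted p = 0.00407) and Snrpb2 (log2 -0.95, adjusted p = 0.0201) were both lower; the call for Snrpb2 held in 4 of the 6 fits that left out a library.

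**Figure D4:**
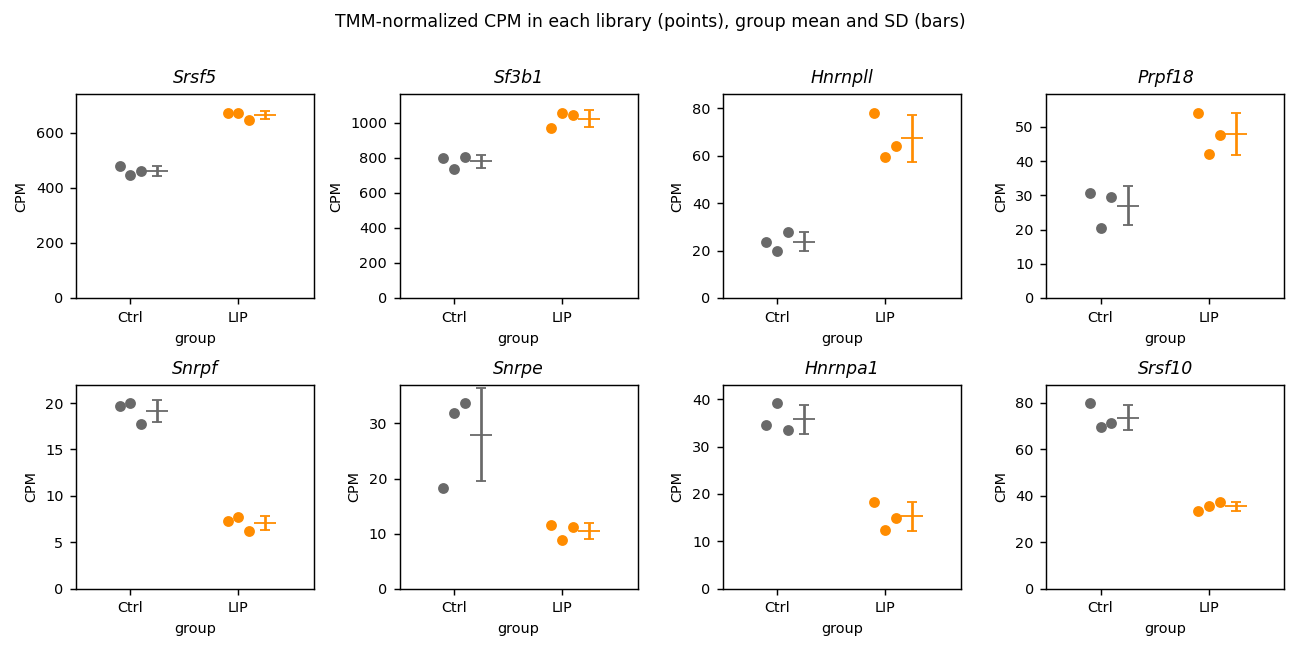
TMM-normalized CPM (y axis, from 0) of 4 genes higher and 4 genes lower in LIP, with each library as a point and the group mean and SD (n = 3) beside it. The groups are separate in each panel; the 4 rises lie in the opposite direction when libraries are scaled on neutrophil genes.

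Among hnRNP genes, 10 of 19 were lower (52.6%, against 27.2% of all genes tested), 2 were higher and 7 were not called, with a median of -0.51. The largest rise under TMM scaling was in Hnrnpll, which regulates alternative splicing of Ptprc (CD45) in lymphocytes. It measured 23.4, 20.0 and 27.9 CPM in Ctrl and 78.1, 59.3 and 64.2 CPM in LIP, without overlap (2.83-fold, log2 1.50 ± 0.176 SE, adjusted p = 5.15e-05). The value was 1.17 with library totals and 1.29 with quantile scaling, both called, and -0.33 on the neutrophil genes. Hnrnpll (chr17:80029487-80062334) and Srsf7 (log2 -0.65) lie 137746 bases apart and moved in opposite directions under TMM scaling. Hnrnpl, its nearest relative with 59.2% identical coding bases, stood at 42.7, 51.2 and 61.8 CPM in Ctrl and 33.7, 30.0 and 37.6 CPM in LIP (log2 -0.62, adjusted p = 0.0126). Per length, the mean FPKM of Hnrnpl and Hnrnpll was 8.86 and 2.07 in Ctrl and 4.66 and 4.73 in LIP.

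A like contrast was present between Hnrnph2 and Hnrnph1, which bind G-rich runs and share 81.3% of their coding bases, the highest identity within a class. Hnrnph2 measured 114, 68.7 and 95.5 CPM in Ctrl and 122, 152 and 141 CPM in LIP (log2 0.58 ± 0.177 SE, adjusted p = 0.0188). The call was lost without LIP replicate 2, and the estimate was 0.24 with library totals. Hnrnph1 measured 66.8, 58.3 and 66.2 CPM in Ctrl and 40.9, 44.2 and 48.0 CPM in LIP (log2 -0.52, adjusted p = 0.00809). The third relative, Hnrnpf, was not called under TMM (log2 -0.28, adjusted p = 0.0833). It overlaps 4933440N22Rik and Gm43863, and reads on near-identical copies equalled 21.3% of its own.

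Hnrnpa1 and Hnrnpa2b1, abundant RNA-binding proteins that often promote exon skipping, were both lower. Hnrnpa1 measured 34.5, 39.2 and 33.6 CPM in Ctrl and 18.4, 12.4 and 14.9 CPM in LIP (log2 -1.23 ± 0.204 SE, adjusted p = 0.000551), and 9 pseudogene copies held reads equal to 11% of its own in Ctrl and 28.0% in LIP. Hnrnpa2b1 measured 392, 446 and 422 CPM in Ctrl and 291, 289 and 258 CPM in LIP (log2 -0.59 ± 0.0994 SE, adjusted p = 0.000626). The third member of this family, Hnrnpa3, had 603 reads in Ctrl and 731 in LIP over 3 libraries each, while its 24 annotated copies held 795% of that, so that its row does not measure the gene. Hnrnpab, with the adjusted p at 0.00407 (log2 -0.60), and the neighbors Hnrnpd (log2 -0.59) and Hnrnpdl (log2 -0.51), which lie 54639 bases apart on chromosome 5 and whose proteins bind AU-rich elements, fell by similar amounts.

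Several well-expressed hnRNP genes showed no call. Hnrnpk, a binder of C-rich runs, measured 468, 400 and 457 CPM in Ctrl and 419, 463 and 392 CPM in LIP, with a 95% interval of the log2 difference from -0.26 to 0.15. Hnrnpu, a scaffold protein of chromatin, had an interval from -0.20 to 0.24 and Hnrnpm one from -0.32 to 0.10. All 3 were called lower with library totals, at -0.39, -0.31 and -0.44. Hnrnpk overlaps Rmi1, Hnrnpu overlaps Cox20 and Hnrnpm overlaps Marchf2. Hnrnpc, which coats nascent transcripts, stood at 219, 211 and 199 CPM in Ctrl and 247, 261 and 237 CPM in LIP (log2 0.24, adjusted p = 0.0597), separate but not called. Calls for Hnrnpa0, Hnrnpr, Hnrnph3 and Hnrnpl held in only 2, 1, 4 and 4 of the 6 fits that left out a library. Hnrnpr averaged 1.68 FPKM in Ctrl and 0.842 in LIP, so it passed the filter only through its Ctrl values.

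Of 11 tested Prpf genes, 3 were lower, 1 was higher and 7 were not called, so that 27.3% were lower, no more than the background of 27.2%. Prpf4, of the U4/U6 snRNP, measured 18.4, 19.9 and 25 CPM in Ctrl and 12.7, 8.23 and 6.64 CPM in LIP (log2 -1.20, adjusted p = 0.00507). Prpf31, which links U4 to U5, measured 20.9, 27.5 and 21.3 CPM in Ctrl and 8.60, 13.4 and 10.4 CPM in LIP (log2 -1.10, adjusted p = 0.00353). Prpf4b, a kinase needed for spliceosome activation, stood at log2 -1.07 (adjusted p = 0.000301). Prpf8, the U5 protein at the catalytic center, was not called, at 63.2, 43.8 and 65.0 CPM in Ctrl and 32.2, 43.5 and 47.3 CPM in LIP (log2 -0.48, adjusted p = 0.0598). The U5 protein Prpf6 (log2 0.16), which overlaps Samd10, and Prpf38b (log2 -0.02) had groups that overlapped.

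The higher gene was Prpf18, which acts at the second catalytic step, when exons are joined. It measured 30.8, 20.4 and 29.6 CPM in Ctrl and 54.2, 42.1 and 47.5 CPM in LIP (log2 0.83 ± 0.195 SE, adjusted p = 0.00473; 0.50 with library totals, adjusted p = 0.0535; -1.0 on the neutrophil genes). Other second-step factors lay outside the naming rule. Dhx38, a helicase of this step, measured 54.3, 40.5 and 62.6 CPM in Ctrl and 143, 161 and 159 CPM in LIP (log2 1.56 ± 0.161 SE, adjusted p = 2.08e-05; 1.23 with library totals and -0.27 on the neutrophil genes), the largest rise among 154 other splicing genes tested. Slu7, chosen for mention after its values were seen, measured 65.1, 73.4 and 73.1 CPM in Ctrl and 83.0, 110 and 98.0 CPM in LIP (log2 0.46, adjusted p = 0.0158; 0.13 with library totals and -1.36 on the neutrophil genes).

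The 154 other splicing genes, from lists covering the rest of the machinery, included 62 lower (40.3%), 16 higher (10.4%) and 76 not called, with a median of -0.35; over all genes tested these were 27.2% lower, 26.5% higher and a median of -0.09. Splice site recognition factors were 12 lower and 0 higher of 25. The U2AF subunits, which bind the 3′ splice site ahead of SF3b, were both lower, U2af1 at log2 -0.75 (adjusted p = 0.0214) and U2af2 at -0.88 (adjusted p = 0.0201), whereas Phf5a, a small SF3b subunit outside the naming rule, was at 0.02 (adjusted p = 0.939). The U2af1 call was lost without Ctrl replicate 2 or LIP replicate 3 (adjusted p = 0.104 and 0.0638), and the U2af2 call without Ctrl replicate 2, Ctrl replicate 3 or LIP replicate 2 (adjusted p = 0.0642, 0.0928 and 0.0574). Tri-snRNP and catalytic factors were 14 lower and 4 higher of 37, exon junction and decay factors 2 lower and 0 higher of 10, minor spliceosome factors 2 lower and 1 higher of 8, both shares lower (20% and 25%) under the 27.2% of all genes, and other regulators 14 lower and 4 higher of 38. Among the last, Msi2, an RNA-binding translational regulator of hematopoietic stem cells, had the strongest fall, from 17.4 ± 1.83 to 5.06 ± 0.851 CPM (SD, n = 3; log2 -1.78, adjusted p = 0.000257). With a mean FPKM of 1.05, Msi2 passed the filter only through its Ctrl values.

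**Figure D5:**
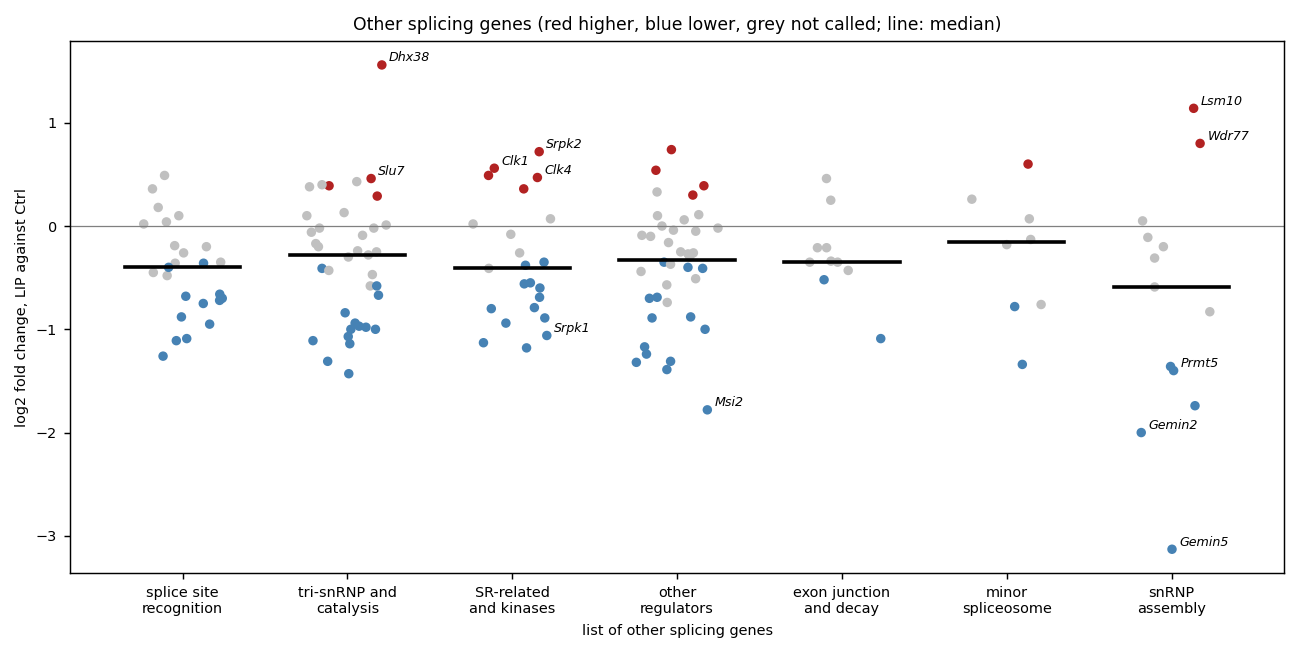
Log2 fold change (LIP against Ctrl, TMM scaling, y axis) of 154 splicing genes outside the naming rule, in 7 lists (x axis). Points are genes, colored by call, and lines are medians; every list has a median below 0, and Dhx38 and Lsm10 stand highest and Gemin5 lowest, with no value above 0 for these when libraries are scaled on neutrophil genes. Gemin5 passed the FPKM filter only through its Ctrl values.

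SR-related proteins and SR protein kinases were 13 lower (56.5%) and 5 higher (21.7%) of 23, against 27.2% lower and 26.5% higher of all genes tested. Of the kinases of the CLK family, which phosphorylate SR proteins in the nucleus, 3 of 4 were higher under TMM and below 0 on the neutrophil genes. Clk1 measured 180, 179 and 199 CPM in Ctrl and 264, 274 and 285 CPM in LIP (log2 0.56 ± 0.0998 SE, adjusted p = 0.000891). Clk4 (log2 0.47, adjusted p = 0.0126) and Clk3 (log2 0.36, adjusted p = 0.0213) were higher too, Clk3 overlapping Edc3, while Clk2 was not called (log2 -0.41, adjusted p = 0.0789). The Clk4 call was lost without Ctrl replicate 3 or LIP replicate 3 (adjusted p = 0.0596 and 0.0556), and the Clk3 call without Ctrl replicate 3, LIP replicate 1 or LIP replicate 2 (adjusted p = 0.087, 0.0727 and 0.0757). With library totals the values for Clk1, Clk4 and Clk3 were 0.23, 0.14 and 0.04, and on the neutrophil genes -1.27, -1.36 and -1.47. The cytoplasmic SR protein kinases went apart. Srpk1 measured 45.6, 50.6 and 44.2 CPM in Ctrl and 28.4, 20.9 and 17.9 CPM in LIP (log2 -1.06, adjusted p = 0.00114), and Srpk2, which overlaps the well-expressed Kmt2e, measured 48.2, 48.2 and 45.9 CPM in Ctrl and 80.9, 81.0 and 72.2 CPM in LIP (log2 0.72, adjusted p = 0.000684; -1.11 on the neutrophil genes). Tnpo3, the importin that carries phosphorylated SR proteins into the nucleus, was lower (log2 -0.79, adjusted p = 0.0118) and overlaps Irf5; the call was lost without Ctrl replicate 1 (adjusted p = 0.0582).

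Factors that build snRNPs were 5 lower (38.5%) and 2 higher (15.4%) of 13, against 27.2% lower and 26.5% higher of all genes tested. Some Sm proteins are methylated by the Prmt5 complex, and Sm proteins are loaded onto RNA by the SMN complex. Prmt5 measured 29.2, 31.9 and 28.2 CPM in Ctrl and 8.48, 14.5 and 10.8 CPM in LIP (log2 -1.40 ± 0.236 SE, adjusted p = 0.000605). The 7 tested Sm genes ranged from -1.44 for Snrpf to -0.41 for Snrpb. Clns1a, which holds Sm proteins for Prmt5 and was chosen for mention after its values were seen, stood at -1.36 (adjusted p = 0.000141), whereas Wdr77, the partner of Prmt5, was higher at 0.80 (-1.04 on the neutrophil genes) but overlaps the well-expressed Atp5pb. In the SMN complex, Gemin5 measured 11, 7.28 and 17.6 CPM in Ctrl and 2.38, 0.595 and 1.11 CPM in LIP (log2 -3.13 ± 0.544 SE, adjusted p = 0.000753) and Gemin2 measured 6.87, 7.87 and 6.54 CPM in Ctrl and 1.21, 2.36 and 1.76 CPM in LIP (log2 -2.00, adjusted p = 0.00137). Their mean FPKM over all libraries was 1.0 and 1.79, and both passed the filter only through their Ctrl values. So did Gemin6, also called lower, with a mean FPKM of 1.31 and 2.98 CPM in Ctrl against 0.889 CPM in LIP. The 38.5% lower counts Gemin2, Gemin5 and Gemin6, so the filter contributed to it. Smn1 itself was not called (log2 0.05, adjusted p = 0.875). Lsm10, an Sm-like protein of the U7 snRNP, which acts on histone mRNA ends and not in splicing, measured 21.6, 31.7 and 25 CPM in Ctrl and 63.3, 54.7 and 55.2 CPM in LIP (log2 1.14, adjusted p = 0.000331; -0.68 on the neutrophil genes).

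Many of these genes make transcript forms that the gene-level counts merge. SR proteins are known to limit their own levels through poison exons, whose inclusion sends the transcript to nonsense-mediated decay. The annotation listed a transcript of that kind for 9 of 10 SR protein genes and 30 of all 64 genes (46.9%), against 25.1% of the protein-coding genes tested. SF3a and SF3b genes had such a transcript in 1 of 9. Retained-intron transcripts were listed for 73.4% of the genes, against 60.5%. A count for Srsf5 or Hnrnpll therefore sums coding and other forms, and which of them changed was not analysed here. Near-identical copies add to this for 20 genes with at least 1 copy matching 95% of bases over 50% of the coding sequence. Besides the hnRNP genes named above, reads on copies equalled 18.7% of those on Snrpe (15.4% in Ctrl and 29.1% in LIP). For Snrpg they equalled 18.4% (18.8% in Ctrl and 17.3% in LIP).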

How the data were processed

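PB neutrophils were profiled in 3 Ctrl and 3 LIP libraries by Smart-seq2 with paired-end sequencing on an Illumina NovaSeq. The submitters' processing notes name cutadapt 1.9, FastQC and the GRCm38 build, per the labels; the aligner, counter and strand setting are not given in the sources used here. The deposited table holds read counts per gene and FPKM values made by the authors from counts, gene length and library totals. The lengths implied by FPKM were nearly constant per gene and long, like merged gene models, so a level per length is relative to these. The deposited table's gene annotation was used to pick genes and to note overlapping genes.

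Counts were tested with edgeR 4.0.16 (R 4.3.3; glmQLFit and glmQLFTest, TMM scaling) on the 10440 genes whose FPKM averaged 1 or more, LIP against Ctrl without further covariates. P-values were adjusted by Benjamini-Hochberg over all of them, with a threshold of 0.05. CPM are TMM-normalized, and SE was derived from the F statistic. The scripts were tested on simulated data. Totals were 52186555 to 57262379 counts; with 3 libraries per group, precision rests on the spread between pools. Alternatives were other scalings, low-value filters, DESeq2 1.42.0, limma 3.58.1 on log2(FPKM + 1) and log2(FPKM + 0.1), and leaving out each library. Named genes were, per class, the 3 with the highest mean FPKM and the largest called rise and fall, the 5 largest called rises and falls in all, close relatives side by side, and, among other splicing genes, the 3 largest called rises and falls and fixed partners; further members of the 64 are given for completeness, and 1 tested gene is counted but not reported here by name. Relatives were compared by identity of coding bases. Copies were sought by aligning coding sequences to annotated transcripts. The genes and lists were chosen with earlier results of these data known.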

Additional observations from a re-analysis of the deposited data

How the results depend on the processing

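Of the 32 genes called lower, 23 remained lower in each of the 6 fits that left out a library and 28 under each of 8 scalings and tools. With no filter 25 remained lower, and with a filter on counts 28 did. The calls lost included Srsf3, Snrpd3, Hnrnpr and Hnrnpa0. Leaving out a library gave 30 to 37 genes called, 4 to 7 higher, 25 to 32 lower, a median log2 fold change of -0.59 to -0.50, a share difference of -0.201 to -0.179 percentage points, 60 to 73 other splicing genes and 4674 to 5385 genes of all. Higher counts fell from 5 to 1 with library totals and with limma at either pseudocount, to 2 with quantile scaling, to 3 with a stricter filter (mean FPKM 5 or more) and to 0 on the neutrophil genes. With DESeq2 they rose to 7, as Hnrnpc and Snrpc were also called (DESeq2 adjusted p = 0.019 and 0.035). The median was -0.86 with library totals and with limma on log2(FPKM + 0.1), -0.71 with limma on log2(FPKM + 1), -0.73 with the stricter filter and -2.36 on the neutrophil genes. With the stricter filter 3666 genes of all were called. On the neutrophil genes 9302 were, 54 higher and 9248 lower, and 59 splicing genes were lower with 153 other splicing genes called. There, signs turned for Clk1 (-1.27), Clk3 (-1.47), Clk4 (-1.36), Dhx38 (-0.27), Hnrnph2 (-1.26), Hnrnpll (-0.33), Lsm10 (-0.68), Phf5a (-1.80), Prpf18 (-1.0), Prpf6 (-1.67), Sf3b1 (-1.44), Sf3b2 (-1.71), Smn1 (-1.78), Srpk2 (-1.11), Srsf5 (-1.31) and Wdr77 (-1.04); this scaling sets the mature neutrophil genes equal between groups. The cause of the other differences was not tested. The share difference was -0.188 percentage points, and -0.341 without haemoglobin, immunoglobulin and mitochondrial genes.

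Same-numbered libraries came from different pools, and their deviations correlated at 0.021, 0.0562 and 0.0363, so the numbers do not pair them. With a replicate block 36 genes were called, 5 higher and 31 lower, against 37, with a median of -0.56, 81 other splicing genes and 5546 genes of all. Depth limits a gene at 0 counts in a LIP library to 0.0595 to 0.0643 CPM.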
